A study of Mus musculus with 21 samples.

Results

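The 49 genes described here copy DNA or carry cells through mitosis. They were chosen by symbol, with 31 genes of origin licensing and the replication fork and 18 genes of mitosis and of its cyclins, out of 22040 genes listed in at least 1 of 4 deposited tables. All 49 were listed in all 4 tables, as were 19399 genes in total. The RNA came from 21 cultures, each of cortical neurons prepared from newborn (P0) mouse pups and grown with 1 µM AraC against dividing glia. Tau cultures carried a human tau cDNA with the P301S mutation (hTau P301S) driven by the prion promoter. They were seeded with 3 µg/mL of tau fibrils on day 7 and were kept for 18 more days. Whether WT cultures were seeded is unclear. The paper's methods name seeding for transgenic neurons only, while its results describe RNA of both genotypes as taken after seeding. If WT cultures were not seeded, genotype and fibrils cannot be told apart. For 24 h, cultures then received 10 µM AdipoRon, a small agonist of the adiponectin receptors, or its vehicle DMSO, so that DMSO was given to 5 cultures of each genotype and AdipoRon to 5 Tau cultures and 6 WT cultures. According to the study's reporting summary, each animal's samples were divided over the treatments. DMSO and AdipoRon cultures were thus not all from separate animals, and pooled means could not use this pairing. The dose is 10 µM in the sample tags, and the deposited treatment protocol gives the same number in mM.

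Cells copy their DNA once per division. In G1, the Mcm2 to Mcm7 helicase is loaded onto origins by Cdc6 and Cdt1, and in S phase it is switched on with Cdc45 and the GINS complex so that polymerases can follow the opened fork. The genes for these proteins are known targets of E2F factors, while genes of mitosis peak later, in G2 and mitosis. In resting cells the DREAM complex represses the latter at cell cycle homology regions, where the complex with B-MYB activates them in dividing cells, and CCAAT boxes are bound by NF-Y. Neurons have left the cell cycle, whereas glial and progenitor cells in a cortical culture can divide, and AraC kills cells that copy DNA.

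The measured value was the mean level of each gene that the authors gave in each table, as log2 CPM (read counts scaled to the size of the library), pooled over the cultures of the table. One table pooled the 10 cultures with DMSO and another the 11 with AdipoRon, each over both genotypes, and the other two pooled the 10 Tau cultures and the 11 WT cultures, each over both treatments. The levels of a table summed to between 1001329 and 1002094 CPM, and whether the authors normalized the tables together is not given in the sources used here, so levels are set across tables that may have separate scales. No value per culture was used, so depth, replicate spread and tests are missing throughout, and every difference below is a description. Whether a pooled mean was set by 1 culture could not be seen. AdipoRon was compared with DMSO as the AdipoRon table minus the DMSO table, and Tau with WT as the Tau table minus the WT table, since the tables of each pair share no culture. Each difference was centred on the median over all genes, which was 0.02 before centring for AdipoRon minus DMSO and 0.0021 for Tau minus WT. A gene was counted where its centred difference reached 0.25 on the log2 scale, which is 1.19-fold. Both differences come from the same 21 cultures and are not independent of each other, and the 4 groups of cultures cannot be separated from the 4 pooled tables.

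Promoters are shown first because the classes differ in their known regulatory elements. RefSeq promoter windows (GRCm38.p6, from 250 bases before to 50 bases after the start) were held for 25 of 31 replication genes and 15 of 18 mitosis genes. They were searched on both strands for TTTGGCGC and TTTCGCGC (E2F), CCAAT (the CCAAT box) and TTTGAA (the cell cycle homology region). Below are the 160 bases before the start of 3 replication genes, with matches in capitals. These 3 were picked by hand and do not stand for the class. All 3 have an E2F match, which was found for 8 of 25 replication genes. Capitals mark E2F and CCAAT matches, read on either strand, and overlapping matches run together. Mcm5 lies at chr8:75109349-75109508 (+ strand), Mcm6 at chr1:128359706-128359865 (- strand) and Pola1, the catalytic subunit of the polymerase that begins each new strand, at chrX:93632156-93632315 (- strand).
Mcm5: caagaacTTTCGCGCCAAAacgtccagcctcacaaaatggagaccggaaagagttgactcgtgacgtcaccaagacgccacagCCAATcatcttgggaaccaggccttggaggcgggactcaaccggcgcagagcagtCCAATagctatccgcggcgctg
Mcm6: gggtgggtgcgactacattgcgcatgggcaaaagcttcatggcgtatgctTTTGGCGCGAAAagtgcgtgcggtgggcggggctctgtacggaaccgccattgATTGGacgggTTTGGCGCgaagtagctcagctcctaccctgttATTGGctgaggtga
Pola1: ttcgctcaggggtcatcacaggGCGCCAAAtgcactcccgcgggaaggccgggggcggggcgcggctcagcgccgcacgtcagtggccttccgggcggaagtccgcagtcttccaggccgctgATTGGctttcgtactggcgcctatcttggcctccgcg

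For the mitosis genes, the same 160 bases are shown for Cdk1, the kinase that drives entry into mitosis, Top2a, which untangles chromosomes, and Ube2c, which helps the anaphase-promoting complex to destroy cyclin B. Capitals here also mark the cell cycle homology region, TTTGAA or its reverse TTCAAA. Cdk1 lies at chr10:69352913-69353072 (- strand), Top2a at chr11:99024190-99024349 (- strand) and Ube2c at chr2:164769769-164769928 (+ strand).
Cdk1: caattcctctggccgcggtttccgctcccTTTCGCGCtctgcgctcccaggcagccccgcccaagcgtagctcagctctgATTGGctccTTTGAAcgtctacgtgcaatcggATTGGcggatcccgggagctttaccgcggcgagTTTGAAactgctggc
Top2a: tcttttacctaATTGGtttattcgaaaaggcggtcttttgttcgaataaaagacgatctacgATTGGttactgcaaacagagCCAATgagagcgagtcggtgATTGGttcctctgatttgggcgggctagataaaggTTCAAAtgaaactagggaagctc
Ube2c: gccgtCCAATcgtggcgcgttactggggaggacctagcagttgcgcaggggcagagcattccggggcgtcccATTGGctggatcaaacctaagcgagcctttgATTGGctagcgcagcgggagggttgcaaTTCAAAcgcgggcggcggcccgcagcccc

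A gene was counted where any of its promoter windows held a match. E2F letters were found for 8 of 25 replication genes (32%) and 1 of 15 mitosis genes (6.67%), against 251 of 27025 genes in all (0.929%). The 8 were Cdt1, Lig1, Mcm3, Mcm5, Mcm6, Mcm7, Pola1 and Rfc3, and the mitosis gene was Cdk1. In Mcm5 and Mcm6, a pair of E2F matches on opposite strands overlapped in a single stretch (TTTCGCGCCAAA and TTTGGCGCGAAA). The cell cycle homology region had the opposite order, with 9 of 15 mitosis genes (60%), 3 of 25 replication genes (12%) and 20.2% of all genes with a window. CCAAT was frequent in both classes, at 72% of replication and 80% of mitosis genes against 41.1% of all. Among further genes of each process, listed separately, 5 of 31 replication genes (16.1%) and 2 of 34 mitosis genes (5.88%) had the E2F letters. The homology region was found for 16.1% and 82.4% of them. A match describes letters and not binding, and a window without one does not speak to the factor. No window was held for Mcm4, Gins1, Gins2, Gins4, Rfc2, Pole, Ccna2, Aurkb or Tpx2.

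**Figure D1:**
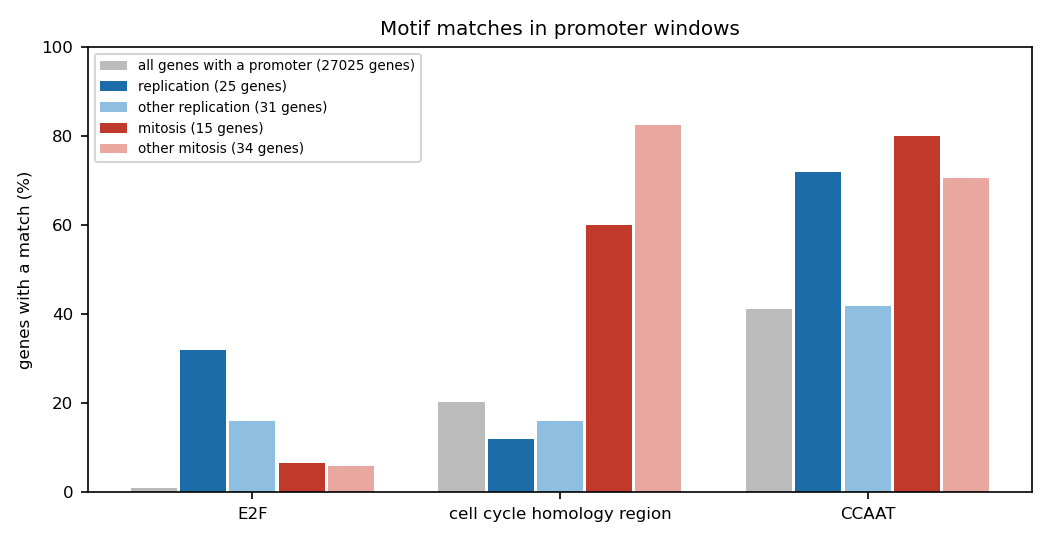
Share of genes (%) whose promoter window held a motif on either strand, for all genes with a window (grey), replication genes (blue), other replication genes (light blue), mitosis genes (red) and other mitosis genes (light red). E2F letters were found for 32% of replication and 6.67% of mitosis genes, and the cell cycle homology region for 12% and 60%.

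The members' pooled levels ran from 1.11 (Gins1 with DMSO) to 6.36 log2 CPM (Rpa1 with AdipoRon). Per kilobase of the canonical transcript, the median level was 2.21 log2 CPM per kb for replication genes and 1.52 for mitosis genes. On this scale the clamp Pcna, which holds polymerases on DNA, stood at 4.98, and the loading factor Cdc6 at -0.70, and among mitosis genes the ends were Top2a (2.94) and Bub1 (0.16). In summed CPM, the replication genes held 503 in the DMSO, 629 in the AdipoRon, 509 in the Tau and 620 in the WT table. For the mitosis genes these sums were 224, 232, 182 and 268 CPM. The replication sums were thus about as low in the Tau table as in the DMSO table, while the mitosis sum was lowest in the Tau table.

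**Figure D2:**
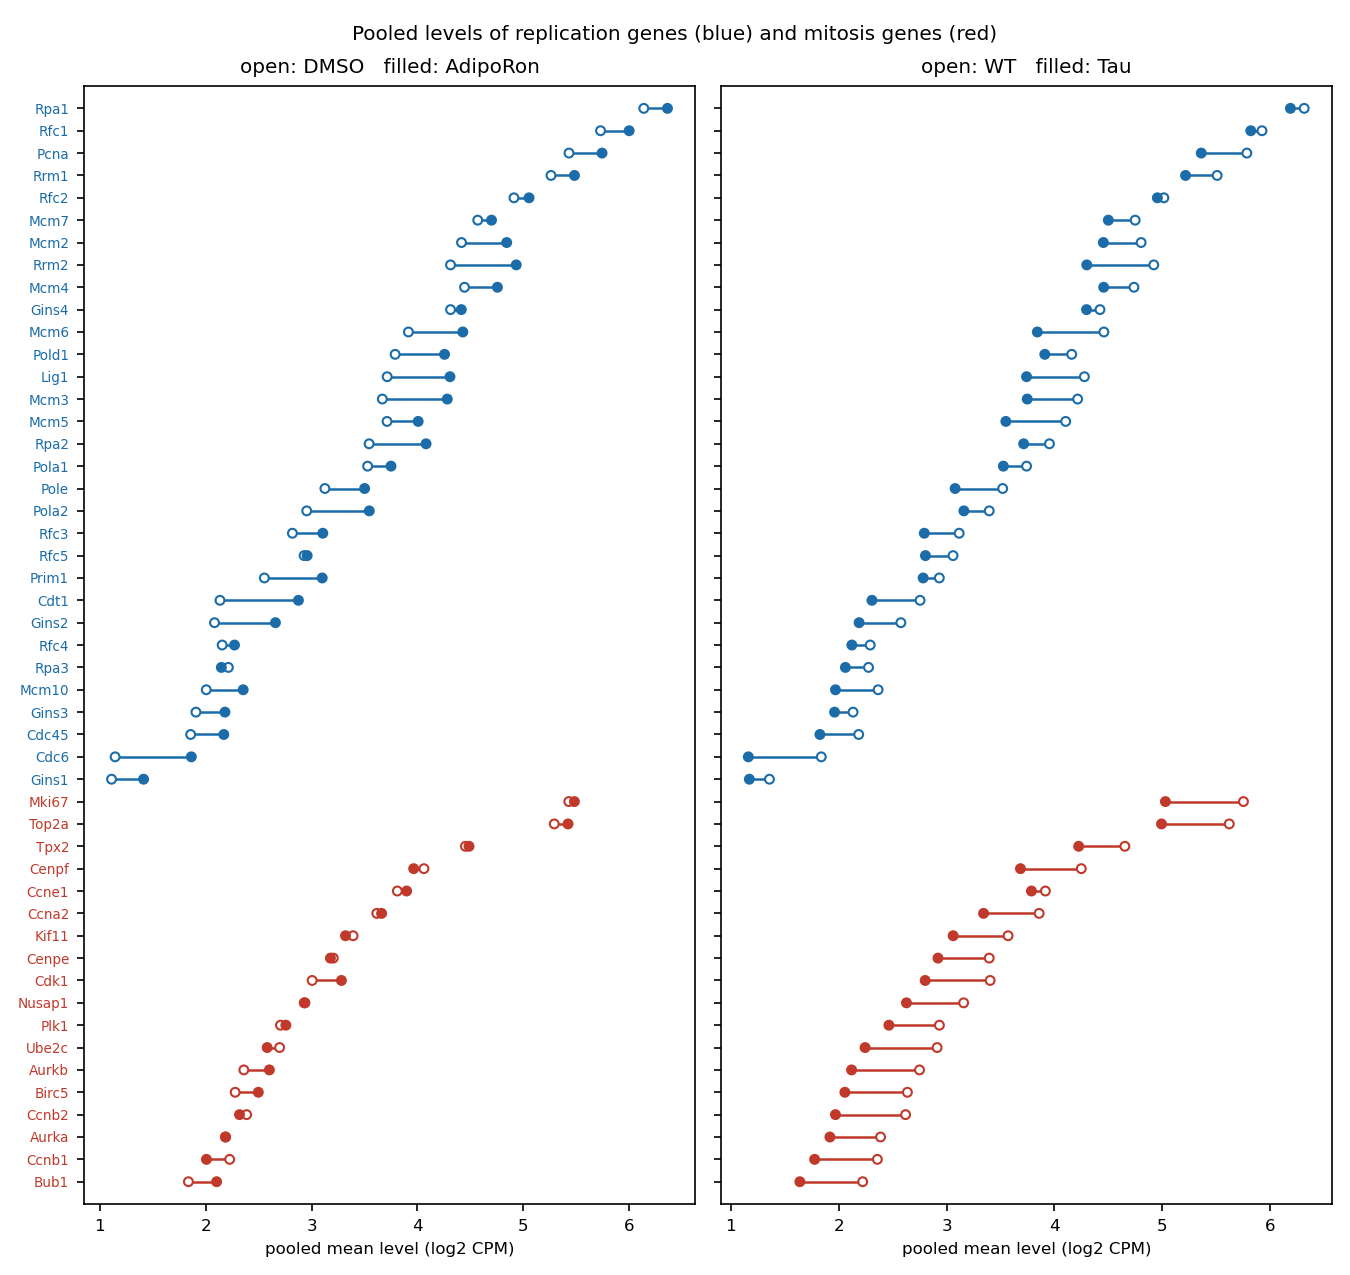
Pooled mean level (log2 CPM) of each replication gene (blue) and mitosis gene (red), with DMSO open and AdipoRon filled on the left, and WT open and Tau filled on the right, without error bars because only pooled means were used. On the left 30 of 31 blue filled points lie right of the open ones and red pairs lie close together, and on the right every filled point lies left of its open one.

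With AdipoRon, replication genes were higher and mitosis genes were close to the median gene. The median difference was 0.29 over 31 replication genes and 0.02 over 18 mitosis genes. Of the replication genes, 21 were higher by at least 0.25 and 0 lower, and of the mitosis genes 1 was higher (Cdk1) and 0 lower. Over all 19693 genes in both tables, 14% were higher and 16.4% lower by this amount, or 14.5% and 12% of the 10520 genes within the members' range of levels. In either direction this made 22 of 49 members (44.9%), against 30.4% of all genes and 26.6% of those within the range. The share counted as higher, 67.7% of replication genes, was thus above the background, and that of mitosis genes, 5.56%, was below it. Of the replication genes, 20 stood above the highest mitosis gene. WT cultures made up 54.5% of the AdipoRon and 50% of the DMSO table. The Tau-minus-WT medians scaled by this imbalance amount to 0.03 for mitosis and 0.01 for replication genes. That takes the genotype difference as the same under both treatments, which pooled levels cannot show. The part of this imbalance in the AdipoRon differences was not tested.

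In Tau cultures both classes were lower, mitosis genes more so. The median Tau-minus-WT difference was -0.28 for replication and -0.57 for mitosis genes, and all 49 were below 0. At least 0.25 lower were 19 of 31 replication genes (61.3%) and 17 of 18 mitosis genes (94.4%), with 0 higher in either class. The background was 8.93% lower and 12.5% higher over all 19890 genes, and 10.1% and 2.98% over the 10523 genes in the members' range of levels. In either direction 36 of 49 members (73.5%) were counted, against 21.4% of all genes and 13.1% of those in the range. Of the mitosis genes, 17 lay below the median of the replication genes, with Ccne1 (-0.13) the exception. The ranges overlapped, from -0.68 to -0.06 for replication genes and from -0.73 to -0.13 for mitosis genes.

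The classes were also set side by side gene by gene. Of 31 replication genes, 16 were both higher with AdipoRon and lower in Tau, 5 were counted with AdipoRon alone, 3 in Tau alone and 7 in neither. Of 18 mitosis genes, 16 were counted in Tau alone, 1 in both (Cdk1) and 1 in neither (Ccne1). The share of all genes in each of these joint classes was not computed. The joint counts therefore have no background and only describe the members.

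**Figure D3:**
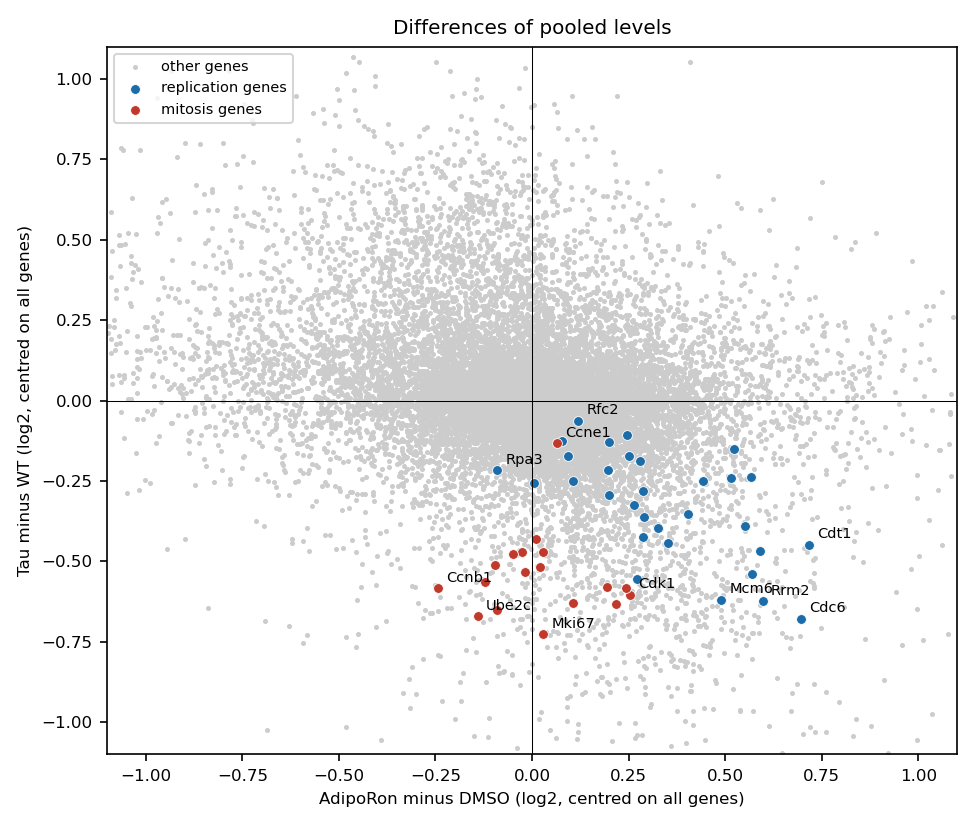
Each point is a gene, by its AdipoRon-minus-DMSO difference (horizontal) and its Tau-minus-WT difference (vertical), in log2 and centred on all genes, with genes beyond 1.1 in either direction outside the axes and no member among them. Replication genes (blue) spread to the right and down to 0.72 and -0.68, while mitosis genes (red) lie near 0 on the horizontal axis and mostly between -0.43 and -0.73 on the vertical.

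Among the 14 licensing and helicase genes, 12 were at least 0.25 higher with AdipoRon (median 0.31) and 11 at least 0.25 lower in Tau (median -0.38). The shares of all genes were 14% higher with AdipoRon and 8.93% lower in Tau. These shares are also the background for the counts of the other roles below. Cdt1, which brings the helicase to origins, was at 2.13 log2 CPM in the DMSO and 2.88 in the AdipoRon table, a centred difference of 0.72 (1.64-fold) and the largest of the members. It was at 2.31 in the Tau and 2.75 in the WT table (-0.45). Cdc6, its partner in loading, was at 1.14 with DMSO and 1.86 with AdipoRon (0.70), and at 1.16 in Tau against 1.84 in WT (-0.68). Cdc6 was the replication gene furthest below WT, at 0.625 of its level. Both loading factors therefore lay at the far end of the class with AdipoRon.

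The 6 subunits of the Mcm2 to Mcm7 ring, which encircles DNA, differed among themselves. Mcm3 was at 3.67 with DMSO and 4.28 with AdipoRon (0.59), and Mcm6 at 3.91 and 4.43 (0.49). Mcm7, at 4.57 and 4.70, differed by 0.11 only. Mcm2, Mcm4 and Mcm5 lay between, at 0.40, 0.29 and 0.27. All 6 were lower in Tau, by amounts that ran from -0.62 for Mcm6 (3.84 against 4.46) and -0.56 for Mcm5 (3.55 against 4.10) to -0.25 for Mcm7, with Mcm3 at -0.47, Mcm2 at -0.35 and Mcm4 at -0.28. Mcm7 was thus the subunit nearest to 0 in both comparisons.

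Of the factors that turn the ring into an active helicase, Gins2 had the largest AdipoRon difference (0.55, from 2.08 to 2.66 log2 CPM). Mcm10 (0.32), Cdc45 (0.29), Gins1 (0.28) and Gins3 (0.251) were smaller but counted, and Gins4 was not, at 0.08. In Tau, Mcm10 (-0.40), Gins2 (-0.39) and Cdc45 (-0.36) were counted. The other GINS subunits were not, at -0.19 for Gins1, -0.17 for Gins3 and -0.13 for Gins4. Levels of Gins1 and Cdc45 were low, at 1.11 to 1.41 and 1.83 to 2.19 log2 CPM over the 4 tables.

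The 6 polymerase, primase and ligase genes, which make and join the new strands, had the highest role median with AdipoRon (0.48), with 5 of 6 counted. By the same limit, 14% of all genes were higher with AdipoRon and 8.93% lower in Tau. Lig1, which seals the fragments of the lagging strand, was at 3.71 with DMSO and 4.31 with AdipoRon (0.57). Pola2, the second subunit of polymerase alpha, was at 2.95 and 3.55 (0.57), and the primase subunit Prim1 at 2.55 and 3.10 (0.52). The leading- and lagging-strand polymerases Pole and Pold1 differed by 0.35 and 0.44, and Pola1 by 0.20. In Tau the order was another, with Lig1 (-0.54), Pole (-0.44) and Pold1 (-0.251) counted and Pola2 (-0.24), Pola1 (-0.22) and Prim1 (-0.15) not. Pola2 and Prim1 were thus near the top of the class with AdipoRon and among the smaller Tau differences.

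Ribonucleotide reductase makes the deoxynucleotides for replication. Its subunit Rrm2, whose level follows S phase, was at 4.31 log2 CPM with DMSO and 4.93 with AdipoRon (0.60), and at 4.30 in Tau against 4.92 in WT (-0.62). The more stable subunit Rrm1 had smaller differences of 0.20 and -0.29. Of the 3 single-strand binding genes, Rpa2 was at 3.54 with DMSO and 4.08 with AdipoRon (0.51), Rpa1 differed by 0.20, and Rpa3 was the only replication gene below 0 (-0.09). In Tau these 3 lay between -0.24 (Rpa2) and -0.13 (Rpa1), and none was counted. Levels of Rpa1 ran from 6.14 to 6.36 log2 CPM.

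Clamp and clamp loader genes had the smallest differences among the replication roles with at least 6 genes, with medians of 0.18 with AdipoRon and -0.21 in Tau. Pcna was at 5.43 with DMSO and 5.74 with AdipoRon (0.29), and at 5.36 in Tau against 5.78 in WT (-0.42). Of the 5 subunits of replication factor C, which opens the clamp, Rfc3 alone was counted with AdipoRon (0.26). Rfc1, the large subunit, was at 5.73 with DMSO and 6.00 with AdipoRon and missed the count at 0.246, and Rfc2, Rfc4 and Rfc5 differed by 0.12, 0.09 and 0.0050. In Tau, Rfc3 (-0.33) and Rfc5 (-0.26) were counted, and Rfc4 (-0.17), Rfc1 (-0.11) and Rfc2 (-0.06) were not. These subunits also serve clamp loading outside S phase, in DNA repair.

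Among the mitosis genes, the markers of chromosomes and mitotic exit were furthest below WT, with a median of -0.67 over 3 genes. Mki67, the gene of the proliferation marker Ki-67, was at 5.75 log2 CPM in WT and 5.03 in Tau (-0.73, 0.605 of the WT level), the lowest difference of any member, and at 5.43 with DMSO against 5.48 with AdipoRon (0.03). Ube2c was at 2.91 in WT and 2.24 in Tau (-0.67), and differed by -0.14 with AdipoRon. Top2a was at 5.62 in WT and 4.99 in Tau (-0.63), and differed by 0.11 with AdipoRon. All 3 thus had a large Tau difference beside a small AdipoRon difference.

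In the Tau comparison, Cdk1 and the B cyclins, its activating partners, behaved unlike Ccne1. Cdk1 was at 3.40 in WT and 2.80 in Tau (-0.60), and at 3.01 with DMSO against 3.28 with AdipoRon (0.253). Ccnb1 was at 2.36 in WT and 1.78 in Tau (-0.58), and its AdipoRon difference of -0.243 was the lowest of all members. Ccnb2 differed by -0.65 in Tau and -0.09 with AdipoRon. The A cyclin Ccna2, used in S phase and G2, differed by -0.52 in Tau and 0.02 with AdipoRon. Ccne1, a cyclin of the entry into S phase, was placed with the mitosis genes. It was at 3.92 in WT and 3.79 in Tau (-0.13), the mitosis gene nearest to 0 in this comparison. With AdipoRon Ccne1 differed by 0.06, between Ccnb1 and Cdk1.

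The 5 kinases and passenger complex genes, which control chromosome attachment and the spindle checkpoint, were all counted as lower in Tau (median -0.58). The share of all genes counted as lower in Tau was 8.93%. Aurkb (-0.63) and its partner Birc5 (-0.58) sit in the passenger complex, and Bub1 (-0.58) guards the checkpoint. Aurka (-0.47) and Plk1 (-0.47), which build the spindle poles, were less low. With AdipoRon, Bub1 (0.243), Aurkb (0.22) and Birc5 (0.19) lay near the top of the mitosis genes, short of the count, and Plk1 (0.03) and Aurka (-0.03) lay near 0. Levels of Bub1 ran from 1.64 to 2.22 and those of Aurka from 1.92 to 2.39 log2 CPM.

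The 5 spindle and kinetochore genes were also all counted as lower in Tau (median -0.51), against 8.93% of all genes. Cenpf, a large kinetochore protein, was at 4.25 in WT and 3.68 in Tau (-0.57), and the kinetochore motor Cenpe differed by -0.48. The spindle motor Kif11 (-0.51) and the spindle proteins Nusap1 (-0.53) and Tpx2 (-0.43, from 4.65 in WT to 4.22 in Tau) lay in the same range. With AdipoRon these genes lay between -0.12 (Cenpf) and 0.01 (Tpx2), with Kif11 at -0.09, so no member of the role reached the count. By that limit, 14% of all genes were higher and 16.4% lower with AdipoRon.

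Tables that share 1 group were set against each other after the data had been seen, because both of these pairs exchange WT cultures with DMSO for Tau cultures with AdipoRon. They are built from the same 4 levels as the differences above, so their values follow largely from those and are no separate evidence, and they are diluted by the shared cultures. For the Tau table minus the DMSO table, which share the Tau cultures with DMSO, the median was 0.0035 for replication genes (16 above 0 and 15 below) and -0.29 for mitosis genes (0 above 0 and 18 below). For the AdipoRon table minus the WT table, which share the WT cultures with AdipoRon, the medians were 0.0082 and -0.21. In the first pair, 17 of 18 mitosis genes lay below the lowest replication gene, Mcm5 (-0.17), and Ccne1 (-0.03) did not.

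Further genes of these processes, from lists written with earlier results of these data known, gave medians in the same order. Of 36 other replication genes, 14 were at least 0.25 higher with AdipoRon and 0 lower (38.9%, median 0.18), and 14 were lower in Tau (38.9%, median -0.215). Chaf1b, a chaperone subunit that deposits histones behind the fork, was the highest with AdipoRon (0.94), the origin subunit Orc4 the lowest (-0.11) and the highest in Tau (0.11), and the fork mediator Clspn the lowest in Tau (-0.71). Of 40 other mitosis genes, 7 were higher and 1 lower with AdipoRon (17.5% and 2.5%, median 0.12), and 35 were lower in Tau (87.5%, median -0.50). Anln, an actin-binding protein of the cleavage furrow, was the highest with AdipoRon (0.84), and the centromeric histone Cenpa the lowest (-0.35). In Tau the motor Kif18b was the lowest (-0.71) and the checkpoint protein Bub3 the highest (-0.06). With AdipoRon, the other mitosis median (0.12) stood nearer to the other replication median (0.18) than the members' medians did to each other. Over all genes, 14% were higher and 16.4% lower with AdipoRon, and 8.93% were lower in Tau. The share of other mitosis genes higher with AdipoRon (17.5%) was thus near the background, and that of other replication genes (38.9%) was above it. In Tau both shares were above it.

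The control of the step from G1 to S phase was read from 33 further genes. Of these, 7 were at least 0.25 higher with AdipoRon (21.2%) and 14 lower in Tau (42.4%), with medians of 0.10 and -0.13. The factor E2f1 was the highest with AdipoRon, at 3.51 log2 CPM with DMSO and 4.05 with AdipoRon (0.51), and the cyclin Ccnd2 the lowest (-0.20). In Tau, the inhibitor Cdkn1c was the lowest (-1.31) and the inhibitor Cdkn1a the highest (0.16). With AdipoRon 0 of the 33 were lower by this amount, and in Tau 0 were higher. Over all genes, 14% were higher and 16.4% lower with AdipoRon, and 8.93% were lower in Tau. The share higher with AdipoRon was thus somewhat above the background and the share lower was below it. In Tau the share lower was above it.

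Markers of other cells in the cultures were read beside these results. All 10 neuron markers, which the label calls for, were listed, at medians of 8.40 to 8.72 log2 CPM over the tables, and 6.37 log2 CPM per kb. Astrocyte markers were nearly as abundant (5.85 per kb over 9 genes), and their summed CPM was between 4771 and 5114. Oligodendrocyte lineage markers stood at 4.11, neural progenitor markers at 2.56, microglia markers at 2.40 and vascular and meningeal markers at 0.625 per kb, and Cldn5 of the last list was not analysed here. Fewer cells of a type and less RNA per cell cannot be told apart in these bulk samples.

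In Tau, microglia and oligodendrocyte lineage markers were lower along with the mitosis genes, while the astrocyte median was near 0 and 2 of 9 progenitor markers were counted. All 9 microglia markers were at least 0.25 lower (median -1.05, from Aif1 at -1.41 to P2ry12 at -0.42), with summed CPM of 572 in WT and 298 in Tau. Oligodendrocyte lineage markers were lower by this amount in 8 of 9 genes (median -0.53, from Sox10 at -1.64 to Olig1 at -0.17), with sums of 1610 in WT and 1199 in Tau. Neural progenitor markers were counted as lower in 2 of 9 (median -0.13, from Eomes at -0.41 to Vim at -0.08), with sums of 2943 and 2718. Astrocyte markers were counted as lower in 2 of 9 (median 0.01, S100b lowest at -0.58 and Slc1a2 highest at 0.12), with sums of 4914 and 4951. Neuron markers were counted as higher in 2 of 10 (median 0.10, Gad1 lowest at -0.01 and Neurod6 highest at 0.66), with sums of 4226 and 4637. Over all genes, 8.93% were lower and 12.5% higher in Tau by this amount. The part of these cells in the members' Tau differences was not tested.

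With AdipoRon, the markers had another pattern. Microglia markers were counted as higher in 5 of 9 and lower in 1 (median 0.27, Cx3cr1 lowest at -0.49 and C1qb highest at 0.42), with summed CPM of 402 with DMSO and 483 with AdipoRon. Oligodendrocyte lineage markers were counted as lower in 4 of 9 (median -0.24, Pdgfra lowest at -0.59 and Mag highest at 0.02), with sums of 1518 and 1326. Neural progenitor markers were counted as lower in 4 of 9 (median -0.19, Hes5 lowest at -0.86 and Pax6 highest at 0.01), with sums of 2954 and 2748. Replication genes therefore stood higher beside lower sums of both these lists and a higher sum of the microglia list. Astrocyte markers were counted as higher in 2 and lower in 2 of 9 (median 0.08, Slc1a3 lowest at -0.26 and Aldh1l1 highest at 0.40), with sums of 4771 and 5114. Gfap, the most abundant of them, was at 1661 CPM with DMSO and 2104 with AdipoRon, so the rise in the sum rests on this gene. Neuron markers were counted as lower in 5 of 10 (median -0.27, Neurod6 lowest at -1.34 and Slc17a7 highest at 0.09), with sums of 4738 and 4093. Vascular and meningeal markers were counted as higher in 1 and lower in 1 of 8 with AdipoRon (median 0.01, Lum at -0.30 to Kdr at 0.54). In Tau they were counted as higher in 4 and lower in 1 (median 0.10, Kdr at -0.50 to Dcn at 0.85). Levels of Kdr were low, at -0.37 log2 CPM with DMSO, 0.20 with AdipoRon, 0.16 in WT and -0.33 in Tau. Over all genes, 14% were higher and 16.4% lower with AdipoRon by this amount. The vascular and meningeal shares with AdipoRon, 12.5% each way, were near this background. The part of all these markers in the AdipoRon differences was not tested.

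**Figure D4:**
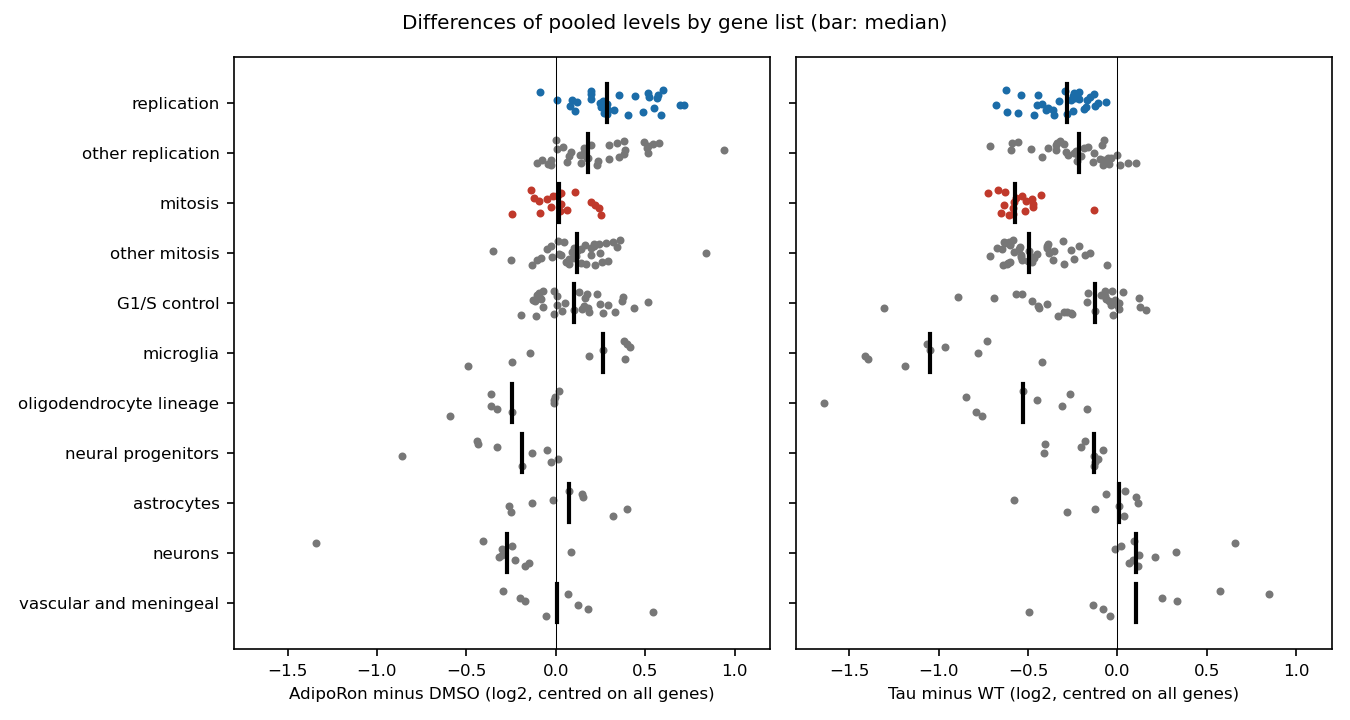
Centred differences (log2) of every gene in each list, for AdipoRon minus DMSO on the left and Tau minus WT on the right, with a black bar at the median of each list and vertical scatter only to separate points. The replication genes (blue) have medians of 0.29 and -0.28, the mitosis genes (red) 0.02 and -0.57, and the microglia list -1.05 on the right.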

How the data were processed

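Polyadenylated RNA of 21 cultures had been sequenced. Reads were trimmed, aligned with STAR to mm10 and compared with edgeR per the submitters' processing notes and the study's methods, which name RSEM for quantification, whereas the deposited tables are named after Rsubread and the paper's results name another build. The deposited tables hold 1 mean level per gene in log2 CPM, pooled by the authors over the cultures of a comparison. Which cultures enter each mean was inferred, since the levels of a gene closed over the 4 tables with a median absolute gap of 0.0108 over all genes, and for the members with a median gap of 0.0235 and a largest absolute gap of 0.132. The tables' fold changes, likelihood ratios, p-values and false discovery rates are the authors' comparisons and were not used. Filters and normalization are not given in the sources used here. edgeR's mean contains a prior count, which draws low levels together.

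Samples were grouped by the deposited labels. Differences of levels and their medians were computed in Python 3.11.15 with pandas 2.3.3 and numpy 2.4.6, drawn with matplotlib 3.10.9, and tested on simulated data with 200 shifted genes. Members and lists were chosen with earlier results of these data known. Transcript lengths are from GENCODE on GRCm39, and promoters from RefSeq on GRCm38.p6, which was used for no other coordinate. Named genes are the 3 highest and 3 lowest of each class by level and by each difference, every member counted in either, and the highest and lowest gene of each other list. Alternatives were other centrings, other folds, means, a filter on low levels and lists without Ccne1 and Ccna2. Centring on genes of the members' levels and tables that share a group were chosen after seeing the data.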

Additional observations from a re-analysis of the deposited data

How the results depend on the processing

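Under the other centrings, means, lists and the filter, the replication medians ran from 0.27 to 0.34 for AdipoRon minus DMSO and from -0.32 to -0.2550 for Tau minus WT, and the mitosis median for Tau minus WT from -0.58 to -0.54, while leaving out Ccne1 and Ccna2 could not touch the replication medians. Counts of members ran from 19 to 24 and from 33 to 35, and at a fold of 0.15 were 30 and 44. The mitosis median for AdipoRon minus DMSO, 0.0162, changed sign to -0.0031 without Ccne1 and Ccna2 and to -0.0055 when centred on genes within the members' range of levels, a choice made after seeing the data. At a fold of 0.5 in place of 0.25, 9 of 49 members in place of 22 were counted for AdipoRon minus DMSO, and 18 in place of 36 for Tau minus WT. Members next to the limit of 0.25 were Rfc1 (0.246) and Gins3 (0.251) with AdipoRon, and Rpa2 (-0.241) and Mcm7 (-0.251) in Tau. No paired analysis was possible because only means pooled over cultures were used, and no culture could be left out for the same reason. Depth per culture is unknown, and precision is weakest for members near 1 log2 CPM.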
